A study of Mus musculus with 8 samples.

Results

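The genes described here are those of cell division and DNA replication in an m6A map of mouse alpha cells, chosen by name. A protein-coding gene was included when its RefSeq symbol begins with Mcm, Cdk, Cdc, Kif, Cenp, Bub, Aurk, Plk or E2f, or with Ccn, a letter and a digit, and when its span on mm10 holds at least 1 site of the deposited table. Of 198 genes with such a name, 106 had a site, and they hold 486 of the 33774 sites of the table. For 99 of them at least 1 site lay in no other protein-coding gene, and 470 sites were of this kind. The other 16 sites lay where protein-coding spans overlap and were kept out of gene totals. That leaves 7 genes with shared sites only, Cdc23, Cdk2, Cenpk, Cenpn, Cenpp, Cenpu and Kif20a. By name, the 106 genes comprise 10 Mcm, 4 E2f, 6 Ccn, 22 Cdk, 24 Cdc, 2 Aurk, 3 Plk, 13 Cenp and 22 Kif genes. No Bub gene had a site, nor did a D-type cyclin, Cdk4, Cdk6, Cdkn1a or Cdkn1c, so these were not analysed here. A name is not a function: Cdk5 and Kif1a are best known from neurons and Cdc37 is a chaperone partner, and they are included because the rule takes them.

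The cells were αTC1-6, an immortalized line of mouse pancreatic alpha cells, the islet cells that secrete glucagon. They had received a scramble siRNA (SCR, the control) or an siRNA against Mettl14 (M14KD), and both kinds of culture were measured by m6A-eCLIP as immunoprecipitated libraries (IP) and as Input libraries. Each of these 4 groups held 2 libraries, numbered 1 and 2 in SCR and 3 and 4 in M14KD. An siRNA lowers a transcript without removing the gene, and the labels name no culture or passage for any library, so p-values measure the spread between these libraries, which may be technical.

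Before a cell divides it copies its genome and then separates the copies. The Mcm2 to Mcm7 proteins form the ring-shaped helicase that is loaded at replication origins and unwinds DNA, E2f transcription factors switch on genes needed for replication, and cyclins with their kinases (Cdk) drive each transition, restrained by inhibitors (Cdkn). Aurora and Polo-like kinases, centromere proteins (Cenp) and kinesin motors (Kif) then build the spindle and move chromosomes. Mettl3 and its partner Mettl14 methylate adenosines of messenger RNA to give m6A, which can shorten the life of a transcript. Adult islet cells seldom divide, whereas an immortalized line divides continuously.

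Summed site counts were 3438530 to 3637740 in the Input libraries and 10207383 to 10918559 in the IP libraries. Mettl14, the siRNA target, had 64 and 44 Input counts in SCR and 32 and 22 in M14KD (log2 fold change -0.95, SE 0.27). The IP counts were 78 and 81 against 42 and 25 (-1.17, SE 0.24). Both M14KD libraries were below both SCR libraries, yet with adjusted p values of 0.241 and 0.157 (edgeR) neither difference passed the threshold of 0.05 used throughout. Of 10 alpha cell markers 7 had sites, Gcg and Ttr among them, of 9 markers of other islet cells none had, and of 10 non-endocrine markers only Sox9 had, at a summed 0 to 1.74 CPM in the Input libraries, CPM being counts scaled to the same library total.

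Few sites of these genes lie where the sequence around them can be read from RefSeq promoter windows of the mm10 assembly, which run from 250 bases before to 50 after a transcript start. Of the 470 sites 8 did, in 7 genes. The 21 bases centred on 6 of these sites are shown because 5 lie just inside the start of the transcript and the other at its first base, read on the strand of the gene with the site base in capitals. Cdc34 is a ubiquitin-conjugating enzyme, Cdk1 the kinase that drives entry into mitosis, Cdk13 a kinase of the RNA polymerase tail, Cdk2ap2 a Cdk2-associated protein, Kif11 the motor that pushes spindle poles apart and Kif1a a vesicle motor.
Cdc34, chr10:79682195-79682215, plus strand: cgcgggccggGccgggccgaa
Cdk1, chr10:69352868-69352888, minus strand: tgctgcgtccGcgcagtccgg
Cdk13, chr13:17805086-17805106, minus strand: gcggggtgtcGccgccgccgc
Cdk2ap2, chr19:4097376-4097396, plus strand: ccaaccccagAggagcggccg
Kif11, chr19:37376372-37376392, plus strand: gaggcgcggaAtcgttgctga
Kif1a, chr1:93101835-93101855, minus strand: caggagcaggCagtaagaagc
The sites lie 10 bases (Cdc34), 34 (Cdk1), 1 (Cdk13), 35 (Cdk2ap2), 0 (Kif11) and 29 (Kif1a) after the first base of an annotated transcript. The letters GGAC, the core of the most frequent m6A motif, occur in none of the 8 windows, and in 48 of 430 such windows (11.2%) over the whole table. The site base is an A in Cdk2ap2 and Kif11 and is not an A in the others, whereas 37.2% of the 430 sites have an A. At the Cdk1 site IP counts were 503 and 504 in SCR against 276 and 251 in Input, a log2 IP over Input of -1.35 (SE 0.10), and at the Cdc34 site -1.14 (SE 0.13), both below 0 and past the threshold. Kif1a had -0.89 (SE 0.16), also past the threshold. Kif11, with 68 and 46 IP counts, had 0.03 (SE 0.34), Cdk2ap2 had -0.10 (SE 0.12) and Cdk13, with 36 and 41 IP counts, had -0.26 (SE 0.39), and these did not pass. So 3 of the 6 lay below the typical site past the threshold and the other 3 did not pass. With column totals in place of TMM these values would lie higher, as described next.

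The first comparison set IP against Input in the control cells, which shows where the antibody took more or fewer reads than the RNA level would give. Ccnt2, the cyclin that pairs with Cdk9 to release paused RNA polymerase, had the highest value of all the members, and E2f4, a repressor of the E2f family, the lowest. Of the 6 replicative helicase genes 5 lay between -1.92 and -1.23, and most families had members on both sides of 0. Values are log2 ratios from edgeR with TMM scaling, in which 0 stands close to the typical gene (median of all 6376 genes tested 0.04) and not to the absence of m6A. Of 98 members tested, 36 were higher and 37 lower (adjusted p under 0.05), 73 in all or 74.5%. Over all genes 69.9% were called, 35.2% higher and 34.7% lower, so the members' share was near that of all genes. Their median was -0.04. With libraries scaled by column totals alone the median of all genes moved to 0.75, so that 58 members were higher and 18 lower (all genes 62.6% and 16.7%), and 22 of the 98 members turned in sign. Every direction below is therefore relative to the typical gene. Cdk11b, a kinase of transcription and splicing, had 0 to 4 counts a library and was not tested.

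**Figure D1:**
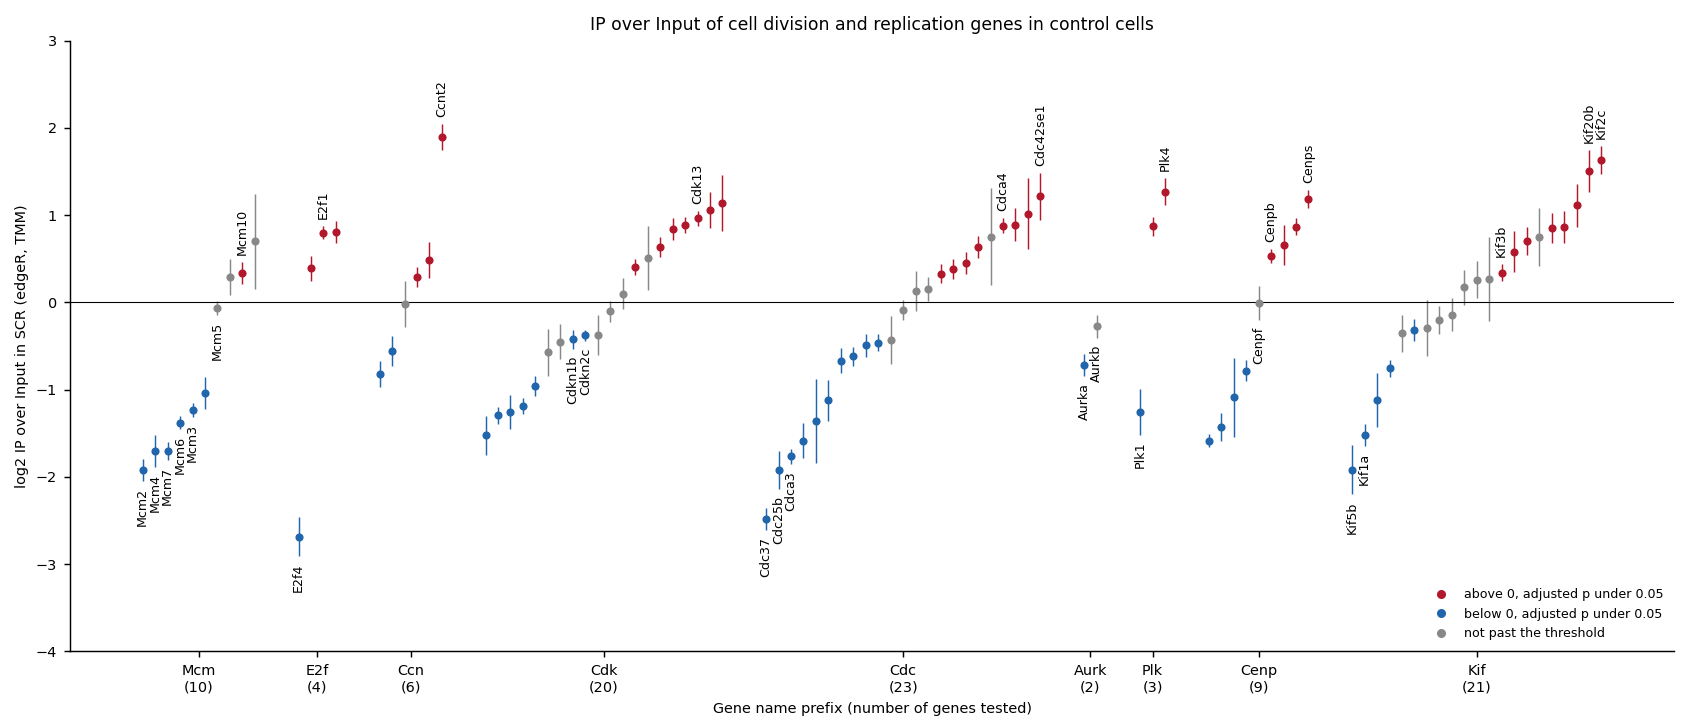
Log2 IP over Input in SCR for each of the 98 tested genes, grouped by name prefix and sorted within it; points are edgeR estimates with TMM scaling and bars are standard errors, with 2 IP and 2 Input libraries. Mcm2, Mcm3, Mcm4, Mcm6 and Mcm7 lie between -1.92 and -1.23 and Ccnt2 at 1.90; with column totals 22 of the points would change sign, Mcm5, Cdkn1b, Cdkn2c, Aurkb and Cenpf among those labelled.

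All 6 subunits of the replicative helicase had values below 0, with a median of -1.54, and 5 of them passed; under column totals these 5 stayed below 0 and Mcm5 turned. Mcm2 had IP levels of 27.7 and 30.8 CPM in the 2 SCR libraries against 62.5 and 74.8 in Input, a log2 IP over Input of -1.92 (SE 0.13, adjusted p = 2.07e-09). Mcm2 and Mcm4 each hold a single site, so their values are those of that site. Mcm4 and Mcm7 had -1.70 (SE 0.18) and -1.70 (SE 0.11), Mcm6 -1.38 (SE 0.07) and Mcm3 -1.23 (SE 0.08). Mcm5 stood apart at -0.07 (SE 0.08, adjusted p = 0.466), with 319 and 322 CPM in IP and 212 and 203 CPM in Input, and it was at 0.37 when 1 site was kept per 100 bases. Among the members that load or start the helicase, Cdc6, which helps to load it, had 0.45 (SE 0.13). Cdc7, the kinase that fires origins, had 0.89 (SE 0.19), and Mcm10, which acts at the activated helicase, 0.34 (SE 0.13). These 3 passed on the higher side, Mcm10 not in every setting (0.12 without replicate 1, not past the threshold). Genes of this kind outside the name rule did not share that direction. Cdt1 had -0.56 (SE 0.10) and Orc6 -0.79 (SE 0.09), both lower and past the threshold. Orc1 at -0.09 (SE 0.42) and Orc2 at 0.11 (SE 0.09) did not pass. Mcmbp, a binding partner of the Mcm complex, was lower at -1.04 (SE 0.19), and with column totals, at -0.33, it no longer passed.

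The 4 E2f genes split by member. E2f1, an activator of replication genes, had 842 and 918 CPM in IP and 313 and 312 CPM in Input, a log2 IP over Input of 0.80 (SE 0.08, adjusted p = 1.48e-07). E2f3, another activator, had 0.81 (SE 0.13) and E2f2 0.39 (SE 0.14), both past the threshold. E2f4, by contrast, had 4.95 and 6.05 CPM in IP and 21 and 22.8 CPM in Input, at -2.68 (SE 0.23, adjusted p = 3.82e-08), from a single site at position 105297764 of chromosome 8. These 4 directions did not turn with column totals.

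Among the cyclins, those of transcription and splicing were the better represented. Ccnt2 had 802 and 653 CPM in IP over 148 and 94.3 CPM in Input in SCR, a log2 IP over Input of 1.90 (SE 0.15, adjusted p = 1.79e-08). Its relative Ccnt1 had 0.48 (SE 0.21), and Cdk9, the kinase both cyclins activate, 0.41 (SE 0.09). Cdk13, another kinase of the polymerase tail, had 0.97 (SE 0.09), all past the threshold, while Cdk12 with 0.50 (SE 0.37) did not pass. Ccnl1 and Ccnl2, cyclins of splicing, lay on opposite sides, at 0.29 (SE 0.11) and -0.56 (SE 0.17), both past the threshold, and Ccnl2 turned to 0.16 with column totals. Ccne1, the cyclin of entry into replication, was lower at -0.82 (SE 0.15), but at -0.11 with column totals it did not pass. Ccng1, a p53 target, had -0.02 (SE 0.26) without passing and turned with column totals.

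Cdk1 had 217 and 233 CPM in IP and 330.1 and 303 CPM in Input, a log2 IP over Input of -1.19 (SE 0.09, adjusted p = 1.24e-08). The phosphatases that activate Cdks lay apart, Cdc25a at 0.39 (SE 0.11) and Cdc25b, on a single site, at -1.92 (SE 0.22). Of the 5 Cdk inhibitors with sites, 4 were lower and 1 higher, but 2 of the 4, Cdkn1b and Cdkn2c, turned with column totals. Cdkn2c (p18), with 22 sites, had 1262 and 1240.4 CPM in IP and 1021 and 988 CPM in Input, at -0.38 (SE 0.06). Cdkn1b (p27) was similar at -0.42 (SE 0.11). The neighbouring genes Cdkn2a and Cdkn2b on chromosome 4 differed, Cdkn2a at -1.29 (SE 0.10) and Cdkn2b at 0.89 (SE 0.09), both past the threshold and in the same directions with column totals. Cdkn2d (p19) was lower at -0.96 (SE 0.11), and with column totals, at -0.24, it no longer passed.

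The mitotic kinases also differed among themselves. Plk4, which starts centriole duplication, had 242 and 183 CPM in IP and 60.6 and 48.7 CPM in Input, a log2 IP over Input of 1.27 (SE 0.16, adjusted p = 2.73e-06). Plk2, an inducible relative, was also higher at 0.87 (SE 0.11), and Plk1, the kinase of mitotic entry and exit, was lower at -1.26 (SE 0.26) on 1 site with 6.64 and 7.15 CPM in Input. Aurka, which matures centrosomes, was lower at -0.72 (SE 0.13), whereas Aurkb, of the chromosomal passenger complex, had -0.27 (SE 0.13, adjusted p = 0.0781). Under column totals neither Plk1 (-0.54) nor Aurka (-0.0054) passed, and Aurkb turned to 0.44.

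Of the 9 centromere genes tested, 4 were higher and 4 lower. Cenps, of the constitutive centromere network, had the highest value at 1.19 (SE 0.11), followed by Cenpl at 0.87 (SE 0.10), Cenpc1 at 0.66 (SE 0.23) and Cenpb, which binds a satellite sequence, at 0.53 (SE 0.08). Cenpa, the histone that marks the centromere, was lower at -1.58 (SE 0.08, adjusted p = 9.8e-11), as were Cenpv at -1.43 (SE 0.16) and Cenpm at -0.78 (SE 0.12). Cenpe, a kinetochore motor, had -1.09 (SE 0.45) at no more than 9.4 CPM in any library. With column totals neither Cenpm (-0.06) nor Cenpe (-0.38) passed. Cenpf, a large kinetochore protein with the most sites of any member (26), lay at 0.00 (SE 0.20), and its sign turned in 5 settings.

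Of the 21 genes tested with the Kif prefix, which also takes in the binding partner Kifbp, 8 were higher and 5 lower. Kif2c, which takes microtubules apart at the centromere, had 67.5 and 69.4 CPM in IP and 16 and 11.3 CPM in Input, a log2 IP over Input of 1.63 (SE 0.16, adjusted p = 1.78e-07). Kif20b, which acts in the last step of division, had 1.51 (SE 0.24), and Kif14, also of cell separation, 1.11 (SE 0.25). The transport motors Kif5b and Kif1a were lower at -1.91 (SE 0.28) and -1.52 (SE 0.13), and so was Kif23, of the midbody, at -1.12 (SE 0.31). Kif23 did not pass with column totals (-0.40). Kif3b, a motor of cilia, had 0.34 (SE 0.10), which did not pass without replicate 1. Kif11 and Kif4, motors of the spindle, had 0.17 (SE 0.20) and -0.14 (SE 0.19) and did not pass. Kif4 turned with column totals, as did Kif3c (-0.32 (SE 0.13)), 1 of the 5 lower Kif genes. Kifc1 and Kifc5b are close copies of each other, so reads could be split between them, and neither passed.

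The Cdc genes cover unrelated roles. Cdc37, which brings kinases to Hsp90, had 21.3 and 22.2 CPM in IP and 70.8 and 80.3 CPM in Input, at -2.49 (SE 0.13, adjusted p = 1.09e-10), from a single site. Cdca3, a trigger of mitotic entry, was lower at -1.76 (SE 0.09), and Cdca4, an E2f-responsive nuclear protein, was higher at 0.88 (SE 0.08). Cdca2 was higher at 0.63 (SE 0.13) and Cdca5, which protects sister cohesion, had -0.08 (SE 0.11), which turned with column totals. Subunits of the anaphase-promoting complex had 0.33 (SE 0.10) (Cdc16), 0.13 (SE 0.23) (Cdc27) and -1.36 (SE 0.49) (Cdc26), of which Cdc16 and Cdc26 passed. Cdc26 rests on a single site with 12 and 12 IP counts and 7 and 6 Input counts in SCR. With column totals Cdc26, at -0.65, did not pass. Cdc42se1, an effector of the small GTPase Cdc42, had 1.22 (SE 0.27).

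The 16 shared sites were tested singly, and 14 had enough counts. The 3 sites shared by Cdc23, another subunit of the anaphase-promoting complex, and Kif20a had IP over Input of -1.79 (SE 0.13), -1.27 (SE 0.14) and -1.05 (SE 0.12), all past the threshold. The site in Cdk2 and Pmel, at position 128698802 of chromosome 10, had -1.52 (SE 0.20) and passed as well. Of 4 sites in Cenpn and Cmc2, 2 were lower. The reads at these sites cannot be given to either gene.

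Gene totals hide differences between sites of a transcript. In 72 genes with at least 2 tested sites, 24 had both a higher and a lower site, 14 had called sites that were all higher, 27 had called sites that were all lower and 7 had none called. These shares of 33.3%, 19.4%, 37.5% and 9.72% compare with 37.1%, 24.6%, 31.8% and 6.5% of the 4753 protein-coding genes with as many sites. Over all member sites 164 were higher and 160 lower of 482, 67.2%, against 67.4% of all sites (34.0% higher and 33.4% lower). With column totals 291 were higher and 91 lower, and with 1 site kept per 100 bases 179 of 263 were called. Shares of all sites called were not computed in these settings. Column totals moved the median of all sites from 0.06 to 0.77, and that of member sites also from 0.06 to 0.77. E2f1 is an example of a gene with both kinds of site. At position 154560716 of chromosome 2 it had 2173 and 2241 IP counts over 134 and 115 Input counts in SCR, 1.87 (SE 0.11), and at position 154561186 it had 138 and 140 IP counts over 103 and 129 Input counts, -2.02 (SE 0.17). Its 6 sites nearest the 3′ end of the gene span were higher and its 3 most distant were lower. In Cdk5r2, an activator of Cdk5, 6 neighbouring sites from position 74856158 to 74856196 of chromosome 1 reached 2.38 (SE 0.14), and the 9 sites on either side were all lower, down to -1.58 (SE 0.18).

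Other genes were more even. In Ccnt2 16 of 17 sites were higher, with 2.74 (SE 0.20) at position 127803507 of chromosome 1, where IP counts were 872 and 696 and Input counts 31 and 17. Plk4 had 9 of 11 sites higher and Plk2 8 of 9, none lower in either. Cdca4 had 8 of 10 higher, and Cdk13 16 of 23, with 2 lower. In Mcm3 and Mcm6 all 6 sites of each were lower, in Cenpa all 7 and in Cdca3 all 5. In Mcm3 values still ranged from -0.46 (SE 0.11) at position 20803286 to -2.72 (SE 0.14) at position 20812034 of chromosome 1. The 3 Mcm5 sites, at positions 75127422, 75127463 and 75127502 of chromosome 8, gave -0.72, 0.39 and -0.01, of which the first was lower and the second higher. Kif1b, a transport motor, had the widest range, from -3.18 (SE 0.48) to 1.53 (SE 0.43), and the lower of the 2 rested on 7 and 6 IP counts. Sites of a gene are not independent, since 72.3% of the 470 member sites (73.4% of sites in all protein-coding genes) had another within 100 bases and the window over which reads were counted is not given in the sources used here.

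**Figure D2:**
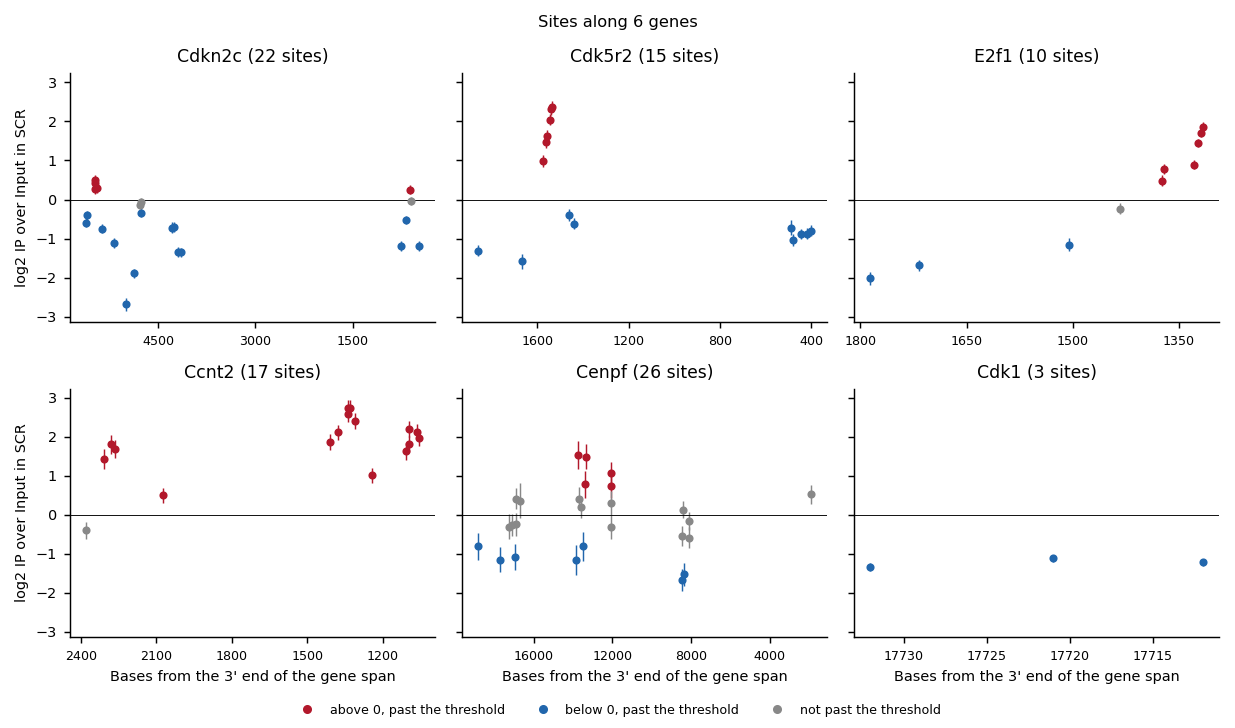
Log2 IP over Input in SCR at each tested site of 6 genes, against the distance in bases from the 3′ end of the annotated gene span (introns included), with standard errors as bars; the genes were chosen after their values were seen. E2f1 sites run from -2.02 to 1.87 and Cdk5r2 sites from -1.58 to 2.38, in Ccnt2 16 of 17 sites are above 0 and past the threshold, and the 3 Cdk1 sites near the transcript start lie between -1.35 and -1.12.

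Positions were compared for 447 sites in the 91 genes whose strand is known, since exons and untranslated regions were not used here. Within 500 bases of an annotated transcript start lay 43 sites in 21 genes, 9.62% of the member sites against 5.39% of sites in all protein-coding genes. Their median IP over Input was -0.89, and 29 of the 43 were lower (67.4%) and 4 higher (9.3%). In all protein-coding genes the median of such sites was -1.01, and 71.7% were lower and 7.7% higher. Cdk1 is an example, with all 3 of its sites 34 to 54 bases after a start and values from -1.35 to -1.12. Of the remaining sites, 124 lay within 1000 bases of the 3′ end of the span (median -0.05), 148 from there to 5000 bases from it (median 0.48) and 132 further inside (median 0.23). The medians in all protein-coding genes were -0.21, 0.26 and 0.21. Genes had a median of 3 sites, the same as in all protein-coding genes, and 13 members (13.1% against 14.1%) had 10 or more. A single site was all that 27 members had (27.3% against 24.4%). Mcm2, Mcm4, Cdc37, Cdc25b, Kif5b, Kif23, Cenpv and Aurka were among them, and their gene values are values of that site.

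The next comparison asked what changed in the IP libraries after Mettl14 knockdown. No member passed, at gene level (0 of 98, with 0.0% of all genes called) or at any site (0 of 481, with 0.63% of all sites called), and DESeq2 called none either. Unadjusted p was under 0.05 in 14 genes (14.3%) against 14.1% of all genes, and at 75 sites (15.6%) against 13.3%. The median log2 fold change was 0.01, as it was over all genes. The median standard error of 0.12 at gene level sets the scale of what these 4 libraries can separate. IP counts also move with the amount of RNA, and in a bulk culture fewer cells at a stage of the cycle and less RNA per cell cannot be told apart.

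The 6 helicase genes had IP fold changes below 0, with a median of -0.17, although none passed. Mcm5 had 319 and 322 CPM in SCR and 255 and 267 CPM in M14KD, so that both M14KD libraries lay below both SCR libraries, and the log2 fold change was -0.27 (SE 0.07, adjusted p = 0.221). Mcm2, with its single site, had 27.7 and 30.8 CPM in SCR and 21.8 and 22.1 CPM in M14KD, again without overlap, at -0.39 (SE 0.12, adjusted p = 0.24). The groups did not overlap in Mcm3 at -0.18 (SE 0.07), in Mcm7 at -0.16 (SE 0.10) or in Mcm6 at -0.14 (SE 0.07), and they did in Mcm4 at -0.02 (SE 0.18). In Input 5 of the 6 were below 0 (4 without replicate 2 or without replicate 4), with a median of -0.12, and the widest gap to 0 was that of Mcm3 at -0.17 (SE 0.08, adjusted p = 0.494). Mcm4 was above 0 in IP without replicate 1 and without replicate 4, and in the other settings run all 6 were below. Beside the helicase, the loader Cdc6 had 83.8 and 88 CPM in SCR and 75.1 and 72.5 CPM in M14KD in IP. Its IP fold change was -0.20 (SE 0.09) without overlap, but in Input it had 0.08 (SE 0.17). The origin kinase Cdc7 went the other way in IP, at 0.28 (SE 0.15), with groups that overlapped. Neither gene passed. Over all members both M14KD libraries lay below both SCR libraries in 29 (29.6%) and above them in 14 (14.3%), against 26.3% and 19.8% of all genes.

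**Figure D3:**
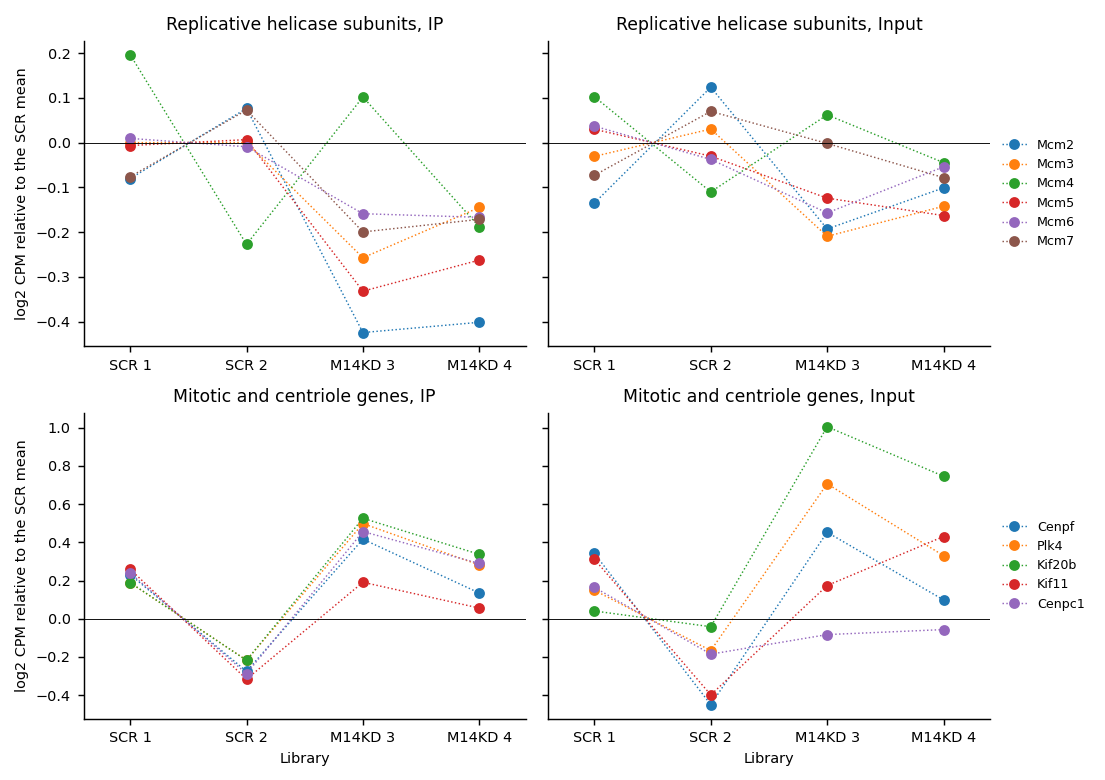
Log2 CPM in each library relative to the mean of the 2 SCR libraries of the same kind, for 6 helicase genes (top) and 5 mitotic or centriole genes chosen after their values were seen (bottom), in IP (left) and Input (right); each point is 1 library and dotted lines join the points of a gene. For Mcm2, Mcm3, Mcm5, Mcm6 and Mcm7 both M14KD IP points lie below both SCR points, while for the lower set SCR 1 lies above SCR 2 in both kinds of library.

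Polo-like kinases gave values on both sides. Plk4 had 242 and 183 CPM in SCR and 300.4 and 259 CPM in M14KD in IP, with both M14KD libraries above both SCR libraries, at 0.41 (SE 0.13, adjusted p = 0.245) on the log2 scale. In Input it had 60.6 and 48.7 CPM in SCR and 89.1 and 68.6 CPM in M14KD, likewise without overlap, at 0.54 (SE 0.16, adjusted p = 0.241). All 11 of its sites had IP fold changes above 0, from 0.24 to 0.55. Plk2 went the other way, with 168 and 139.7 CPM in SCR and 125 and 124 CPM in M14KD in IP, at -0.28 (SE 0.10, adjusted p = 0.292), and 52.3 and 52 CPM in SCR and 36.2 and 37.5 CPM in M14KD in Input, at -0.49 (SE 0.14, adjusted p = 0.241). In neither gene did a value pass with all libraries. Plk1 had -0.02 (SE 0.21) in IP, Aurka -0.13 (SE 0.11) and Aurkb 0.12 (SE 0.10).

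Kif20b had 28.2 and 21.3 CPM in SCR and 35.6 and 31.3 CPM in M14KD in IP, at 0.45 (SE 0.15, adjusted p = 0.267), and 5.53 and 5.22 CPM in SCR and 10.8 and 9.02 CPM in M14KD in Input, at 0.89 (SE 0.29, adjusted p = 0.301), without overlap in either. Kif1a, the vesicle motor, had 38.2 and 49.5 CPM in SCR and 33.1 and 35.5 CPM in M14KD in IP, at -0.33 (SE 0.13, adjusted p = 0.317), and 78.3 and 77 CPM in SCR and 54.2 and 60.8 CPM in M14KD in Input, at -0.42 (SE 0.13, adjusted p = 0.287), where both M14KD libraries were the lower ones. Of the Cdk inhibitors, Cdkn2c had 1262 and 1240.4 CPM in SCR and 1405 and 1395 CPM in M14KD in IP, at 0.18 (SE 0.06, adjusted p = 0.277), and 0.17 (SE 0.07) in Input. The other 4 had smaller IP values, 0.06 (SE 0.09) in Cdkn1b, 0.06 (SE 0.07) in Cdkn2a, 0.09 (SE 0.07) in Cdkn2b and 0.13 (SE 0.10) in Cdkn2d. Cdk2ap2, which binds Cdk2, had 111 and 119 CPM in SCR and 140.3 and 129 CPM in M14KD in IP, at 0.25 (SE 0.08, adjusted p = 0.277).

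Cdca4 had both M14KD libraries above both SCR libraries in either kind of library, at 0.20 (SE 0.07) in IP and 0.31 (SE 0.10, adjusted p = 0.318) in Input. E2f1 had -0.05 (SE 0.07) in IP and 0.02 (SE 0.08) in Input, with 313 and 312 CPM in SCR and 317 and 311 CPM in M14KD in the Input libraries, where the groups overlapped. Cdk1 had 0.16 (SE 0.08) and 0.07 (SE 0.09), Ccne1 0.12 (SE 0.12) and -0.07 (SE 0.18), and Cdkn1b 0.06 (SE 0.09) and 0.13 (SE 0.12), in IP and Input respectively. None of these passed.

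Input libraries measure the RNA before selection, and no member passed there either, 0 of 91 at gene level (0.0172% of all genes called) and 0 of 450 sites (0.0929% of all sites called), with none called by DESeq2. Unadjusted p was under 0.05 in 13 genes (14.3%, against 10.4% of all genes) and at 48 sites (10.7%, against 8.69%). The median was 0.00 and the median standard error 0.17. Besides Plk4, Plk2, Kif20b and Kif1a, the lowest p values were those of Cdca4 and Ccnl2 among higher genes and of E2f3 and Cdk5 among lower ones. Cdk5, whose product works with Cdk5r2, had 11.9 and 11.8 CPM in SCR and 8.02 and 5.82 CPM in M14KD, at -0.76 (SE 0.27, adjusted p = 0.344). E2f3 had 24.9 and 24.2 CPM in SCR and 15.2 and 17.7 CPM in M14KD, at -0.57 (SE 0.19, adjusted p = 0.321), and here too the groups did not overlap. Ccnl2 had 24.9 and 17.9 CPM in SCR and 33.5 and 27.6 CPM in M14KD, at 0.53 (SE 0.20, adjusted p = 0.371). Both M14KD libraries lay below both SCR libraries in 18 members and above in 18, 19.8% each, against 21.1% and 19.7% of all genes.

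**Figure D4:**
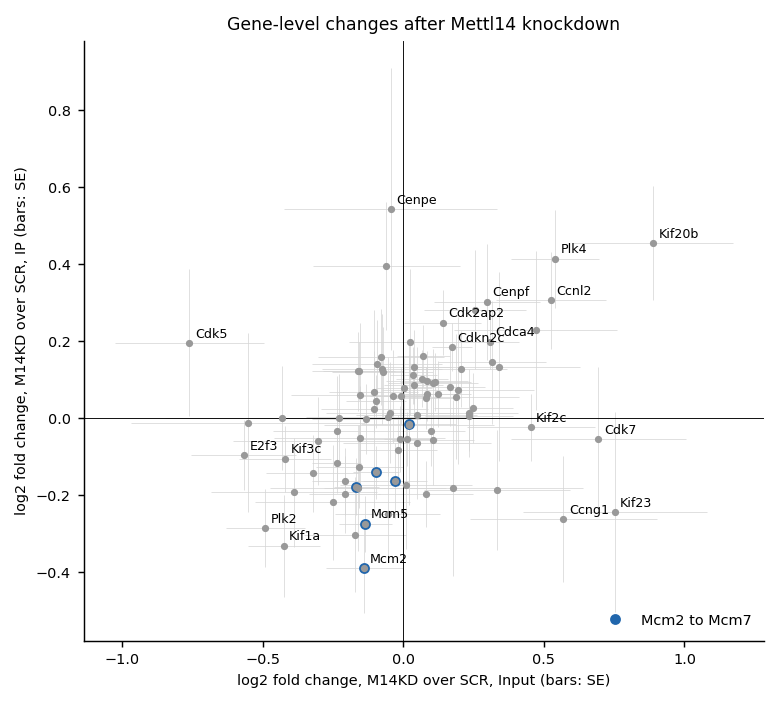
Gene-level log2 fold changes of M14KD over SCR in Input (horizontal axis) and IP (vertical axis) for the 91 genes tested in both, with standard errors as bars; blue marks Mcm2 to Mcm7. Plk4 and Kif20b are at the upper right, Plk2 and Kif1a at the lower left, and the helicase genes lie below 0 in IP; none of the points passed in either kind of library.

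A model of all 8 libraries asks whether knockdown altered IP over Input, that is, whether antibody reads moved apart from the RNA level, and again no member passed, 0 of 98 at gene level and 0 of 482 sites, by edgeR or by DESeq2, with 0.0% of all genes and 0.0% of all sites called. Unadjusted p was under 0.05 in 5 members (5.1%) against 2.63% of all genes, and at 16 sites (3.32%) against 3.72%. The 5 were Cdk5 at 0.95 (SE 0.33) and E2f3 at 0.47 (SE 0.19), both higher in M14KD, and Kif23 at -1.005 (SE 0.40), Ccng1 at -0.84 (SE 0.35) and Cdk7, a kinase that activates other Cdks, at -0.76 (SE 0.35), lower in M14KD. All had an adjusted p of 0.999. In each the Input fold change lay further from 0 than the IP fold change. Kif23, for example, had 4.15 and 4.12 CPM in SCR and 7.47 and 6.4 CPM in M14KD in Input, with both M14KD libraries above, and 3.39 and 2.74 CPM in SCR and 2.75 and 2.35 CPM in M14KD in IP, where the groups overlapped. The next in rank were Kif3b at 0.27 (SE 0.14) and Kif3c at 0.31 (SE 0.19) on the higher side and Kif2c at -0.48 (SE 0.23) on the lower. All 6 helicase genes had values below 0, from -0.26 in Mcm2 to -0.02 in Mcm3, with a median of -0.10 against a median standard error of 0.22 over members; 4 were below 0 without replicate 1, and 5 without replicate 3, without replicate 4 and with a mean count of at least 20. In 67 members IP over Input was called in the same direction in SCR and M14KD, in none in opposite directions, in 6 only in SCR and in 8 only in M14KD. These calls were counted for members only, so they do not set the members apart from other genes. Between the genotypes IP over Input correlated at Pearson r = 0.96 across members and 0.94 across all genes. The sign of IP over Input was the same in both genotypes in 93 of 98 members (94.9%), against 92.8% of 6376 genes. In M14KD 75 of 98 members were called (76.5%), against 71.0% of all genes.

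The 2 SCR libraries differed from each other in a number of these genes. Among 87 members with enough counts, 16 (18.4%) had an IP level in SCR 1 more than 0.3 log2 units above SCR 2, against 8.7% of 5218 genes. The reverse held in 1 member (1.15%), against 2.95% of all genes. The limit of 0.3 was chosen after the values were seen. In 10 of the 16 the Input libraries differed by more than 0.3 in the same direction. In the M14KD pair, 6 members (6.9%) had an IP level in replicate 3 more than 0.3 above replicate 4, against 4.75% of all genes. Cenpf had 282 and 199 CPM in SCR and 321 and 264 CPM in M14KD in IP and 189 and 109 CPM in SCR and 204 and 160.0 CPM in M14KD in Input. Kif11 had 106 and 70.9 CPM in SCR and 101 and 91.8 CPM in M14KD in IP, with SCR 2 the lowest of the 4. Cenpe had 75 and 33 IP counts in SCR and 99 and 51 in M14KD. SCR 1 exceeded SCR 2 in IP by 0.51 log2 units in Cenpf, 0.58 in Kif11 and 1.14 in Cenpe. These gaps were larger than the fold changes between M14KD and SCR in IP, 0.30 (SE 0.15), 0.15 (SE 0.16) and 0.54 (SE 0.37). What set SCR 1 apart from SCR 2 was not tested. Without SCR replicate 1, which leaves 1 SCR library whose spread is taken from the M14KD pair, 6 of 98 members were called in IP (2.92% of all genes), Cenpf (0.58, SE 0.11), Cenpc1 (0.68, SE 0.15), Kif11 (0.46, SE 0.12), Plk4 (0.63, SE 0.11) and Kif20b (0.67, SE 0.15) higher, and Kif1a (-0.51, SE 0.13) lower. Without SCR replicate 2 only Plk2 was called, at -0.42 (SE 0.11), with 0.437% of all genes. Without M14KD replicate 4 (2.63% of all genes) those called were Cenpf (0.42, SE 0.11), Plk4 (0.50, SE 0.11), Cdc7 (0.46, SE 0.14) and Cenpe (0.90, SE 0.27), all higher, and without M14KD replicate 3 none was called. In Input without SCR replicate 1 1 member, Cenpf, was called at 0.73 (SE 0.15), with 0.721% of all genes.

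Other genes of division and replication lie outside the name rule, and 59 of 94 on a list of them had sites. None of 58 tested passed in IP, none of 57 in Input and none of 58 in the change of IP over Input. In IP over Input in SCR 10 were higher (17.2%) and 33 lower (56.9%), against 35.2% and 34.7% of all genes, with a median of -0.38. With column totals 30 were higher (51.7%) and 13 lower (22.4%), against 62.6% and 16.7% of all genes, with a median of 0.34. Pcna, the sliding clamp of the polymerase, had -2.07 (SE 0.10), Rrm1, which makes deoxynucleotides, -1.89 (SE 0.09), and Top2a, which untangles chromosomes, -1.33 (SE 0.14). On the higher side were Sgo1, the guardian of cohesion, at 1.33 (SE 0.16) and Gins3, a helicase cofactor, at 1.01 (SE 0.11). Gins3 stood apart from its relatives, with Gins1 at -1.18 (SE 0.27), Gins2 at -0.36 (SE 0.13) and Gins4 at -0.48 (SE 0.10). All of these were lower and past the threshold. After knockdown 36 of the 58 had IP fold changes above 0 and 22 below, with a median of 0.05. Over all 6378 genes 3345 were above 0 and 3033 below, with a median of 0.01. The lowest p values in IP were those of Rpa3, of the single-strand binding complex, at 0.40 (SE 0.08, adjusted p = 0.156), Nuf2, of the kinetochore, at 0.45 (SE 0.10, adjusted p = 0.181), and Cdt1, which loads the helicase with Cdc6, at -0.40 (SE 0.09, adjusted p = 0.183).

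Promoters of the members were read for E2F-type letters because E2F factors act on many replication genes. TTCCCGC or TTGGCGC, on either strand, occurred in the window from 250 bases before to 50 after a start in 28 of 96 members with a RefSeq promoter (29.2%), in 9.94% of 17491 protein-coding genes and in 15.5% of the 5149 protein-coding genes that also have a site in the table. Of the 5 genes among Mcm2 to Mcm7 with a promoter entry, 4 had these letters. Matches before the start in 3 of them, Mcm5, Mcm6 and Mcm7, are shown because these genes act in 1 complex. Each line reads in the direction of the gene, with the match in capitals.
Mcm5, chr8:75109352-75109374, plus strand: gaactttcGCGCCAAaacgtcca
Mcm5, chr8:75109337-75109359, plus strand: agctgctaGCGCCAAgaactttc
Mcm6, chr1:128359737-128359759, minus strand: ggacgggtTTGGCGCgaagtagc
Mcm6, chr1:128359800-128359822, minus strand: gtatgcttTTGGCGCgaaaagtg
Mcm7, chr5:138171365-138171387, minus strand: ctagcgaaTTCCCGCgtccactg
Mcm7, chr5:138172034-138172056, minus strand: ttcgaaccGCGGGAAacagggtg
The matches lie 149 and 164 bases before the start in Mcm5, 46 and 109 in Mcm6, and 113 and 165 before 2 different starts in Mcm7. In Cdc25a a TTGGCGC match on each strand overlaps the other. A match of letters is a description of the promoter and not evidence of binding.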

How the data were processed

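The labels and the file headers describe 1 table of m6A-eCLIP read counts per site for 8 libraries. The deposited counts are whole numbers that are not normalized, per the file headers; UMI-tools, cutadapt and STAR with mm10 are named in the submitters' processing notes, while for the calling of sites and the counting window no method is given in the sources used here. Sites were named by RefSeq gene spans (GRCm38.p6): 31917 of 33774 lay in 1 gene by the rule that a single protein-coding gene comes first, in 6528 genes, and 1272 in several protein-coding genes. Exons were not used; strand came from the promoter table and was lacking for 8 members. There were 0 unused columns.

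Counts per site and per gene (summed over sites) were tested over all features with edgeR 4.0.16 (filterByExpr, TMM, quasi-likelihood F-test; R 4.3.3), with Benjamini-Hochberg adjustment at 0.05: M14KD against SCR within IP and within Input, and, in 1 model of 8 libraries, IP over Input and its change. The SE is the log2 fold change divided by the root of F, without its sign. CPM divides a count by the library's summed site counts. Fits were tested on simulated data. Alternatives were DESeq2 1.42.0, its size factors, column totals, no filter, a stricter filter (mean count 20), joint fits of all libraries, leaving out each replicate, 1 site per 100 bases and the replicate number as a block.

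IP and Input libraries share replicate numbers, and deviations from the group means correlated at 0.38 in SCR and 0.26 in M14KD over 5218 genes. The numbers may therefore pair them, although no label says so. The reported fits did not use this pairing, and the replicate block, which does, was run only as an alternative. Replicate pairs differed beyond sampling noise (chi-square over degrees of freedom 1.38 to 2.56). The members and lists were chosen with earlier results of these data known. Genes were named by rule (in each comparison of M14KD with SCR the 4 lowest p each way, the 6 highest and 6 lowest called IP over Input, the member of each prefix with most sites and that with most Input reads, and fixed core genes); other members are examples of their role, chosen after their values were seen.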

Additional observations from a re-analysis of the deposited data

How the results depend on the processing

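Counts of members called in either direction held within 1.5 times of the reported ones under DESeq2, other scalings and filters, all libraries in 1 model and the replicate block, for each comparison in which these were run. By direction they did not: in IP over Input in SCR, column totals moved 36 higher and 37 lower members to 58 and 18, and 164 higher and 160 lower sites to 291 and 91. With the replicate block, which pairs IP and Input by number, 75 members were called in IP over Input in SCR and 76 in M14KD. It called 343 sites in SCR and 0 members in the change, and it altered no count by more than 1.5 times. Shares of all genes and sites with the block are not given here, so these counts describe the setting and not the members. The reported fits called 69.9% of all genes in SCR, 71.0% in M14KD and 67.4% of all sites in SCR. With 1 library left out, 1 group held a single library, and the members called in IP and Input changed as described above. Calls at single sites in these fits are not given, since their share over all sites was not computed. With 1 site per 100 bases, 179 sites in place of 324 were called in IP over Input, since fewer sites were tested. Of 88 values of named genes under alternatives, 83 kept their call in IP and 5 passed only with a library left out, while all 88 kept it in Input and all 88 in the change. Of 330 in IP over Input, 314 kept their call, 6 lost it and 10 turned. With column totals those that turned were Aurkb (0.44), Cdkn1b (0.29), Cdkn2c (0.34), Cenpf (0.71) and Mcm5 (0.65). Cenpf also turned without a filter (0.0074), with the replicate block (0.0092), without replicate 1 (0.15; -0.10 without replicate 2) and with 1 site per 100 bases (0.20), and Mcm5 with 1 site per 100 bases (0.37). The median standard error of a member site was 0.14 in IP, 0.26 in Input and 0.31 for the change, with median site counts of 162 to 177 in IP and 31 to 34 in Input libraries.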

Other observations

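Among the members, log2 fold changes after knockdown in IP and in Input had the same sign in 59 of 91 genes (64.8%), against 68.7% of 5817 genes tested in both, with Pearson r = 0.34 across members and 0.44 across all genes; each point is a gene, genes are not independent, IP and Input may come from the same cultures, and no test was made. The other promoter-window sites, both in Cdk8, did not pass in IP over Input: these 2 sites, 233 and 220 bases before a start, had 0.15 (SE 0.37) and -0.42 (SE 0.38). Among all deposited sites 17 lay at the first base of an annotated transcript, and 13 of them had an A there.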
